A study of Oryza sativa with 12 samples.

Results

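Rice leaves that overexpress either of 2 plasma membrane aquaporins were compared with all wild-type leaves of the same study, to find the transcript changes that both overexpression lines shared and that were larger than the difference between the wild-type pairs. The comparison used 8 of the 12 RNA-seq libraries: 4 from overexpressing (OE) leaves and 4 from wild-type (WT) leaves. PIP2-1 OE leaves (2 libraries) carried OsPIP2-1 with a 3xMyc tag, and PIP2-7 OE leaves (2 libraries) carried OsPIP2-7 with a 3xFLAG tag, each behind the maize ubiquitin promoter, which is active in most tissues. The WT leaves came in pairs of 2 libraries, each labelled as the control for one of the genes and called here PIP2-1 WT and PIP2-7 WT. All 8 were vegetative leaves of the indica variety Pusa Basmati-1 taken at 2.5 months. The labels do not say how many independent transformation events or plants stand behind a library. The p-values of 1 OE line against 1 WT pair reflect how far libraries differ within a pair, and that spread may be technical only. For 4 OE against 4 WT libraries the spread also holds the differences between the OE lines and between the WT pairs. The other 4 libraries, from T-DNA-free CRISPR-Cas9 knockouts of the same genes (PIP2-1 KO and PIP2-7 KO), were used only for the levels of genes that both OE lines shared.

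Aquaporins are channel proteins that let water, and in some members other small molecules, pass through membranes, and the PIP family sits in the plasma membrane. PIP2 proteins form active water channels on their own, while PIP1 proteins usually need a PIP2 partner to reach the plasma membrane. In leaves, PIP channels take part in water movement between the veins, the mesophyll and the stomata.

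The 8 libraries held between 24636211 and 40666127 counts over 38978 annotated genes. Genes of photosystems, antenna and Rubisco, which mark green leaf tissue, summed to 23020 to 33880 CPM (counts scaled to library size) in OE libraries and 24260 to 48600 CPM in WT libraries. Of the floral and meristem markers, 3 of 13 passed the filter on low counts, with sums of 35.9 to 45.7 CPM in OE libraries and 40.4 to 45.4 CPM in WT libraries. These are bulk leaves, in which fewer cells of a type and less RNA per cell cannot be told apart.

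The targeted genes were highest each in its own line. OsPIP2-1 (Os07g0448800, chromosome 7, positions 15406442 to 15409748, IRGSP-1.0, 3 annotated exons) had 1926 and 1876 CPM in PIP2-1 OE libraries and 117 CPM in both PIP2-7 OE libraries, against 132 and 133 CPM in PIP2-1 WT libraries and 138 and 142 CPM in PIP2-7 WT libraries. OsPIP2-7 (Os09g0541000, chromosome 9, positions 21310132 to 21311479, 2 exons) had 292 and 295 CPM in PIP2-1 OE libraries and 1770.5 and 1662 CPM in PIP2-7 OE libraries, against 339 and 335 CPM in PIP2-1 WT libraries and 684 and 690 CPM in PIP2-7 WT libraries. For each gene the libraries of the line that carries it lay above all others, and those of the other OE line lay below all WT libraries. Both targets were therefore outside the shared changes, with adjusted p = 0.339 for OsPIP2-1 and 0.633 for OsPIP2-7 over 4 OE against 4 WT libraries (edgeR's quasi-likelihood test with Benjamini-Hochberg adjustment over 22672 genes).

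The rest of the PIP family gave no shared change. Of 13 annotated PIP loci 11 passed the filter, 0 passed the 4 against 4 test by edgeR, 3 were at an unadjusted p below 0.05, and OE and WT libraries overlapped at all 11. PIP1-1 (Os02g0666200), a PIP1 isoform, had 560 and 541 CPM in PIP2-1 OE libraries and 367 and 358 CPM in PIP2-7 OE libraries, against 407 and 381 CPM in PIP2-1 WT libraries and 776 and 780 CPM in PIP2-7 WT libraries. PIP2-1 OE libraries lay between the WT pairs, and PIP2-7 OE libraries lay below both. PIP1-3 (Os02g0823100) stayed within a narrow band, with 149 and 153 CPM in PIP2-1 OE libraries and 114 and 111 CPM in PIP2-7 OE libraries, against 140 and 127 CPM in PIP2-1 WT libraries and 104 and 108 CPM in PIP2-7 WT libraries. A pair of further PIP2 loci followed the transgene of the PIP2-1 OE line: Os04g0521100 had 88.5 and 81.4 CPM and Os07g0448400 had 70.7 and 64.2 CPM there, against at most 7.11 and 5.14 CPM in any WT library. Reads that map to several places were counted at each of them, so the part of transgene reads in these related loci was not tested.

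Few genes passed the test of all OE against all WT libraries. Of the 22672 genes tested, 91 (0.401%) passed the 4 against 4 test, 65 of them higher (0.287%) and 26 lower (0.115%) in OE leaves, and 2436 genes (10.7%) had an unadjusted p below 0.05. All 91 also met the rule for a shared change, which was applied to the same libraries on top of that test. By this rule each OE line passed against each WT pair in 1 direction, and the 4 OE libraries did not overlap the 4 WT libraries. The gap between the nearest OE and WT pair means also exceeded the difference between the WT pair means. The test already holds the differences between WT pairs and between OE lines in its error, so meeting the rule is no independent support. The rises were of genes with little transcript in WT leaves (median of the WT means 0.131 CPM, of the OE means 7.63 CPM), and their log2 differences ran from 0.58 to 11.9. The falls were smaller and of genes at moderate levels (median of the OE means 19.5 CPM, of the WT means 34.8 CPM), with log2 differences between -3.77 and -0.55. A symbol was given to 23 of the 91 genes (25.3%, against 30.4% of all genes tested), 13 rises and 10 falls.

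The spread among groups limited these calls. Within the 4 groups the common biological coefficient of variation was 2.98%, and in the model of OE against WT, which leaves the difference between WT pairs and between OE lines in the error, it was 33.4%. The WT pairs themselves differed at 13847 genes (61.1% of those tested). The absolute WT pair difference had a median of 0.315 log2 units over all genes and 0.112 over the 91. The test and the rule that chose the 91 both favour a small WT pair difference, so their lower median is a description only. Many of the 91 also had little transcript in WT leaves, where the constant added to CPM before the log2 step shrinks this difference. Without overlap between 4 OE and 4 WT libraries stood 1950 genes (8.6%), and 876 genes (3.86%) passed all 4 line against WT pair comparisons in 1 direction, 785 of which missed the 4 against 4 test. The count and its balance depended on the model. With the experiment (PIP2-1 or PIP2-7) as a block, so that each line was set against its own WT pair, 507 genes passed, 290 higher and 217 lower, all 91 among them. With DESeq2 and no block 687 genes passed, 331 higher and 356 lower, 89 of the 91 among them. The 4 against 4 test counts libraries of 1 group as separate. With the replicates of each group summed, 1 gene passed, Os03g0115800, and with the group as a random effect in limma voom 16 genes passed, 15 of them among the 91 but only 1 of the 23 with a symbol, qCTR12. The correlation within groups was 0.914 in that fit. With any 1 of the 8 libraries left out, between 46 and 55 genes passed, fewest without PIP2-7 OE replicate 2, and 41 of the 91 (35 rises and 6 falls) passed in all 8 such fits.

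**Figure D1:**
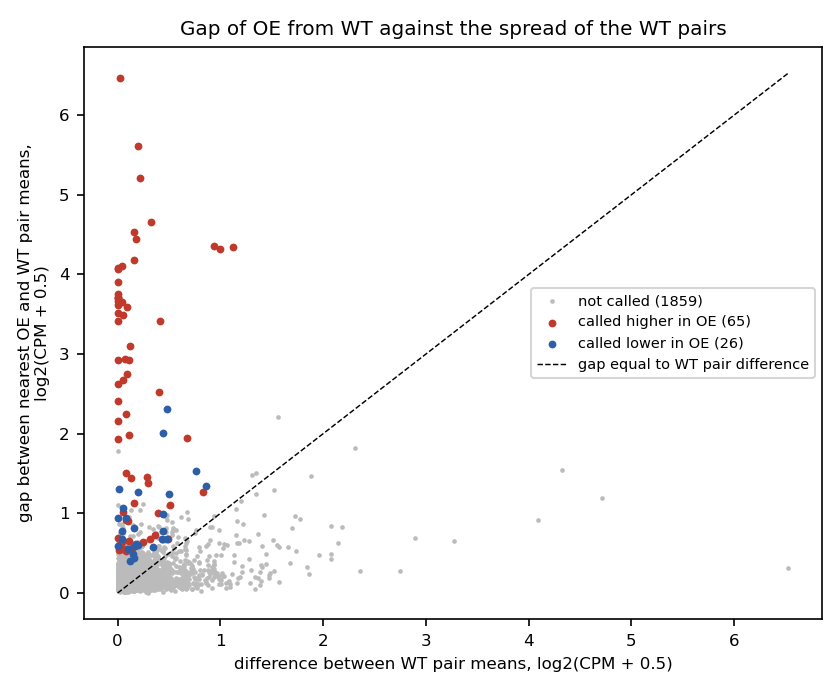
Gap between the nearest OE and WT pair means (vertical axis) against the difference between the WT pair means (horizontal axis), both in log2(CPM + 0.5), for the 1950 genes whose 4 OE libraries do not overlap the 4 WT libraries. Each point is a gene, red where called higher in OE (65), blue where called lower (26) and grey where not called (1859); all called genes lie above the dashed line, on which the gap equals the WT pair difference.

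The largest group of shared rises consisted of genes near-absent in WT leaves. Of the 65 rises, 36 were below 0.5 CPM in all 4 WT libraries and at 1 CPM or more in all 4 OE libraries, and 34 of these had no symbol. Over all genes tested 37 met this pattern and 3 met its reverse. In 16 of the 36 no read was counted in any WT library, and their OE means were at least 77-fold to at least 615-fold higher than the floor of 3 counts over the 4 WT libraries (0.0226 CPM). No gene was at 0 in all 4 OE libraries and at 1 CPM or more in all 4 WT libraries. These bounds cover counting error only. With 1 library left out, 27 of the 36 passed in all 8 fits, and 7 passed with the group as a random effect.

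The 36 genes divided by their level in knockout leaves. Under 0.5 CPM in all 4 KO libraries were 20 of them, 8 were at 1 CPM or more in all 4 KO libraries, 5 only in the PIP2-7 KO pair and 3 only in the PIP2-1 KO pair. In the 8 genes present in OE and KO leaves but nearly absent in WT leaves, the levels were 1.91 to 55.6 CPM in OE libraries and 1.7 to 51.6 CPM in KO libraries, against 0 to 0.31 CPM in WT libraries. The highest of them, Os03g0115800 (chromosome 3, positions 887193 to 888623, 1 exon), had 55.6 and 55.3 CPM in PIP2-1 OE libraries and 50.7 and 49.1 CPM in PIP2-7 OE libraries. It had 35.6 and 39.7 CPM in PIP2-1 KO libraries and 51.6 and 50.6 CPM in PIP2-7 KO libraries, against 0.031 to 0.102 CPM in WT libraries. All 8 transgenic or edited libraries lay above all WT libraries, and the log2 difference of OE from WT was 9.54 with a standard error (SE) of 0.243 and adjusted p = 3.13e-06. Its neighbour Os03g0115700 rose as well, with 4.14, 4.69, 1.95 and 1.91 CPM in the OE libraries against 0.0288 to 0.217 CPM in the WT libraries. It passed in 4 of 8 fits with 1 library left out, and Os03g0115800 in all 8.

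A set of 3 unnamed loci on different chromosomes behaved like this group from a WT level that was low but above 0.5 CPM. Os07g0153150 had 217 and 216 CPM in PIP2-1 OE libraries and 144 and 149 CPM in PIP2-7 OE libraries, against 2.7 and 2.9 CPM in PIP2-1 WT libraries and 7.26 and 6.19 CPM in PIP2-7 WT libraries, and 128 to 139 CPM in the KO libraries. Os05g0438201 had 195, 188, 130 and 134 CPM in the OE libraries against 2.93, 2.7, 6.18 and 6.01 CPM in the WT libraries in the same order of groups. Os11g0636050 had 112, 101, 72.9 and 73.8 CPM in the OE libraries against 1.52, 1.25, 3.13 and 3.08 CPM in the WT libraries. At each locus PIP2-1 OE libraries were the highest and PIP2-1 WT libraries the lowest, so the levels moved in parallel across the 3 loci. Whether they share multi-mapping reads was not tested.

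Among the 20 genes near-absent in both WT and KO leaves, 13 had no count in any WT or KO library. Of these, 9 had an annotated exon length between 2800 and 3000 bases, a length held by 615 of the 22672 genes tested (2.71%). The window was set around these loci, so the share over all genes is a description only. The 9 loci lie on chromosomes 1, 5, 10, 11 and 12 and had near-equal levels: 4.97 to 7.59 and 4.64 to 8.15 CPM in the PIP2-1 OE libraries, and 5.92 to 11.3 and 7.74 to 11.8 CPM in the PIP2-7 OE libraries, with 0 in all WT and KO libraries. Within the set, Os12g0537000, Os12g0538000 and Os12g0538066 stand within 100 kb of each other. With multi-mapping reads counted at each place, loci of equal length and level may count the same reads, so the 9 are not independent of each other. The highest of the 20, Os12g0489300 (chromosome 12, positions 18351588 to 18353679, 5 exons), did not belong to this set, with 31.2 and 32.3 CPM in PIP2-1 OE libraries and 29.2 and 27.9 CPM in PIP2-7 OE libraries, at most 0.0867 CPM in KO libraries, and 0 to 0.153 CPM in WT libraries.

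**Figure D2:**
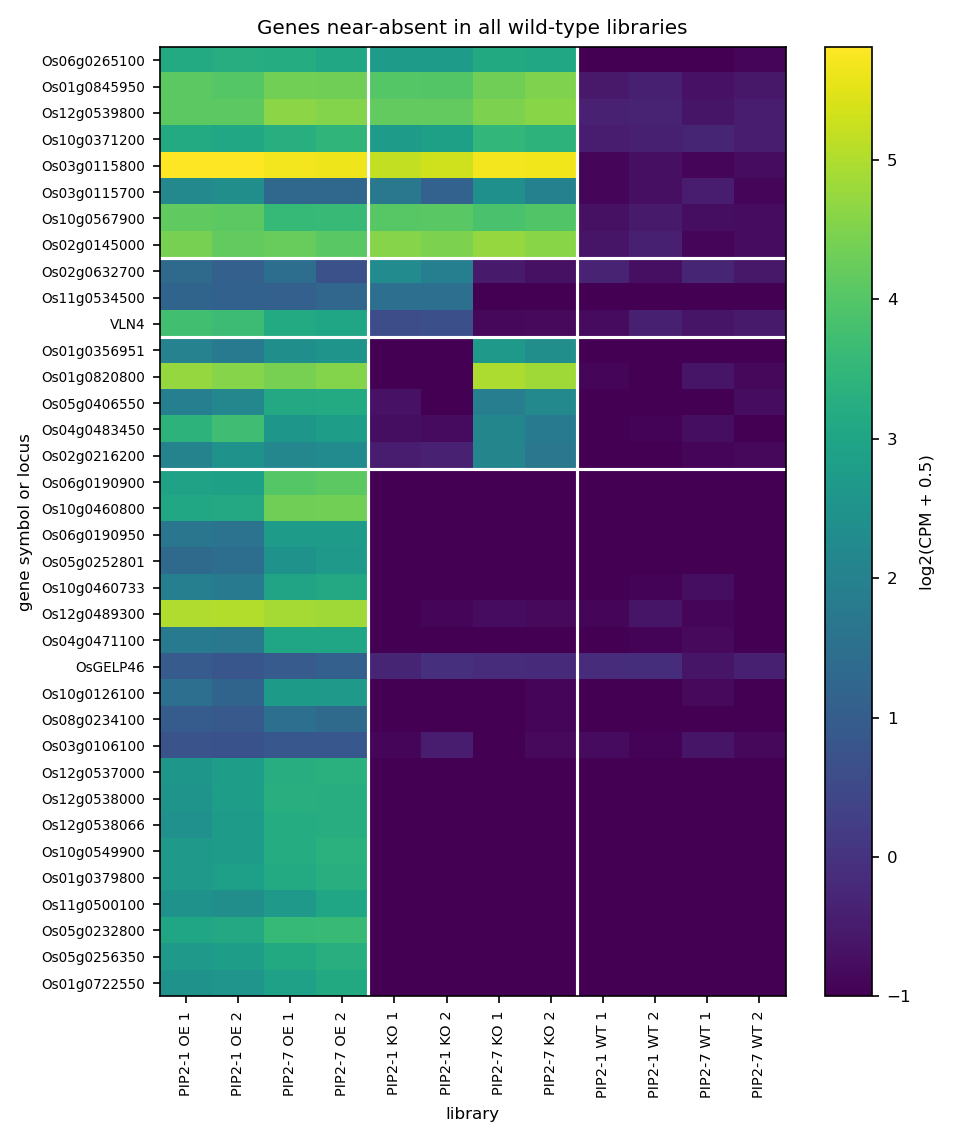
Levels of the 36 shared rises that were below 0.5 CPM in every WT library, in log2(CPM + 0.5), with genes as rows and the 12 libraries as columns (OE, then KO, then WT). White lines separate the genes by level in KO libraries. At 1 CPM or more were 8 in all 4, 3 only in the PIP2-1 KO pair and 5 only in the PIP2-7 KO pair, and 20 were below 0.5 CPM in all 4.

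In a fit of all 12 libraries, added after the levels above were seen, OE leaves differed from KO leaves at 235 of 23172 genes (1.01%; 0.673% higher and 0.341% lower). Of the 91 shared genes, 34 passed in the direction they had against WT, 29 rises and 5 falls. The 91 were chosen on the same OE libraries, which favours that direction, so the 34 are a description and no independent support. By the labels, KO leaves are free of T-DNA, and OE leaves carry a construct. The part of the construct was not tested.

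OsNCED1 fell and BZIP46 rose in OE leaves, the 2 shared genes of the ABA list (93 members tested). OsNCED1 (Os02g0704000, chromosome 2, positions 29026099 to 29028176, 1 exon), which encodes a 9-cis-epoxycarotenoid dioxygenase of abscisic acid (ABA) synthesis, had 491 and 473 CPM in PIP2-1 OE libraries and 378 and 372 CPM in PIP2-7 OE libraries, against 875 and 790 CPM in PIP2-1 WT libraries and 1114 and 1140.5 CPM in PIP2-7 WT libraries. The OE libraries were all below the WT libraries, and the log2 difference was -1.19 (SE 0.178, adjusted p = 0.039). KO libraries, at 463 to 544 CPM, overlapped the OE range. BZIP46 (Os06g0211200), a transcription factor that responds to ABA and drought, had 9.29, 9.78, 7.61 and 8.16 CPM in OE libraries, against 5.1, 4.56, 4.66 and 4.2 CPM in WT libraries. It rose by 0.91 log2 units (SE 0.13, adjusted p = 0.0295), and KO libraries, at 3.16 to 4.81 CPM, reached into the WT range. With 1 library left out, neither gene passed in any of the 8 fits (adjusted p 0.0582 to 0.146 for OsNCED1 and 0.0599 to 0.138 for BZIP46, the highest of both without PIP2-7 WT replicate 1).

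OsOPR10 (Os01g0369900), an oxophytodienoate reductase of the family that includes the jasmonate synthesis enzyme, had 39.1, 38, 44.2 and 40.6 CPM in OE libraries, against 76.9, 71.3, 67 and 63.5 CPM in WT libraries. It fell by 0.78 log2 units (SE 0.0924, adjusted p = 0.0118). It passed in 5 of 8 fits with 1 library left out, with the highest adjusted p, 0.0623, without PIP2-7 OE replicate 2. KO libraries had 32.9 and 38.3 CPM (PIP2-1 KO) and 21.1 and 18.8 CPM (PIP2-7 KO), below or within the OE range. OsJMT1 (Os05g0102000), a jasmonate methyltransferase, was near its detection limit, with 0.0247 to 0.127 CPM in OE libraries against 0.576 to 1.2 CPM in WT libraries. YUCCA4 (Os01g0224700), a monooxygenase of auxin synthesis, had 2.05, 2.37, 1.93 and 2.55 CPM in OE libraries, against 4.95, 4.51, 4.75 and 4.72 CPM in WT libraries, a log2 difference of -1.09 (adjusted p = 0.0239). OsEIL4 (Os08g0508700), of the EIN3-like factors of ethylene signalling, rose, with 7.05, 7.16, 6.87 and 6.28 CPM in OE libraries against 2.93, 2.67, 2.02 and 1.64 CPM in WT libraries (log2 difference 1.56, adjusted p = 0.018). OsPSK3 (Os12g0147800), which encodes a precursor of the peptide hormone phytosulfokine, had 20.9, 20.5, 20 and 19.5 CPM in OE libraries against 13, 13.5, 12.4 and 11.6 CPM in WT libraries. Its rise was 0.68 log2 units (SE 0.0849, adjusted p = 0.0158), and its KO libraries were higher than the OE pair means in PIP2-1 KO leaves, at 33.1 and 32.6 CPM. With 1 library left out, OsPSK3 passed in 1 of 8 fits (highest adjusted p 0.0788, without PIP2-7 WT replicate 1), OsEIL4 in 2, OsJMT1 in 1 and YUCCA4 in none. OsJMT1, YUCCA4 and OsEIL4 averaged below 5 CPM and were chosen after their values were seen. OsJMT1 had 1.69 and 1.7 CPM in PIP2-1 KO libraries and 0.0289 and 0.0877 CPM in PIP2-7 KO libraries. YUCCA4 had 0.969 and 1.12 CPM in PIP2-1 KO libraries, below its OE range, and 4.83 and 3.16 CPM in PIP2-7 KO libraries. OsEIL4 had 3.44 and 4.41 CPM in PIP2-1 KO libraries, and 9.37 and 11 CPM, above its OE range, in PIP2-7 KO libraries.

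The largest rise among genes with a symbol and at least 5 CPM was that of VLN4. VLN4 (Os04g0604000, chromosome 4, positions 30463871 to 30473000, 23 exons), a villin that bundles actin filaments, had 13 and 12.3 CPM in PIP2-1 OE libraries and 8.48 and 7.65 CPM in PIP2-7 OE libraries, against 0.0761 to 0.255 CPM in WT libraries. It was at 1.03 and 1.08 CPM in PIP2-1 KO libraries and 0.0578 and 0.0585 CPM in PIP2-7 KO libraries. The log2 difference was 5.84 (SE 0.354, adjusted p = 0.000278), and the call was kept in all 8 fits with 1 library left out. It was lost with the group as a random effect in limma voom (adjusted p = 0.505) and with replicates summed (adjusted p = 0.248 by edgeR). The authors' deposited table gave a log2 fold change of 5.53 with q = 0.00799 for PIP2-1 OE and 5.70 with q = 0.204 for PIP2-7 OE.

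OsACL5 (Os02g0237100), named for the thermospermine synthase ACAULIS5, which acts in vascular development in Arabidopsis, had 11.1 CPM in both PIP2-1 OE libraries and 49.1 and 51.4 CPM in PIP2-7 OE libraries, against 1.1 and 0.942 CPM in PIP2-1 WT libraries and 1.4 and 1.64 CPM in PIP2-7 WT libraries. Both lines were above all WT libraries, and the change was larger in PIP2-7 OE leaves by 1.58 log2 units (SE 0.25, adjusted p = 4.8e-07). The shared log2 difference was 4.59 (SE 0.641, adjusted p = 0.0281), and 2 of 8 fits with 1 library left out passed (highest adjusted p 0.141, without PIP2-7 WT replicate 1). qCTR12 (Os12g0550600) had 79.1 and 75.9 CPM in PIP2-1 OE libraries and 43 and 45.8 CPM in PIP2-7 OE libraries, against 9.93 and 9.98 CPM in PIP2-1 WT libraries and 18.4 and 17.9 CPM in PIP2-7 WT libraries. Its KO libraries split, with 72.3 and 72 CPM in PIP2-1 KO leaves and 0.26 and 0.205 CPM in PIP2-7 KO leaves. The log2 difference of OE from WT was 2.12 (SE 0.309, adjusted p = 0.0362), with adjusted p between 0.0576 and 0.116 when 1 library was left out, highest without PIP2-1 WT replicate 2.

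The other named rises were of at most 2-fold. OsLTP2.12 (Os10g0505700), a lipid transfer protein, had 146, 143, 164 and 160 CPM in OE libraries, against 93.8, 86.1, 63 and 64.9 CPM in WT libraries (log2 difference 0.99, SE 0.149, adjusted p = 0.0394). OsRNS2 (Os01g0897200), a ribonuclease of the T2 family, had 88.1, 84.8, 82.3 and 84.6 CPM in OE libraries, against 58.3, 54.6, 59 and 55.2 CPM in WT libraries (log2 difference 0.58, SE 0.0725, adjusted p = 0.0158). OsTLP11 (Os05g0560400) had 8.7 to 10.4 CPM in OE libraries and 5.9 to 6.21 CPM in WT libraries. KO libraries of OsLTP2.12 had 155 and 166 CPM (PIP2-1 KO) and 60.8 and 62.1 CPM (PIP2-7 KO). Those of OsRNS2 had 41.8 to 58.5 CPM and those of OsTLP11 4.45 to 6.59 CPM. In these 3 genes the OE and WT libraries did not overlap, which the shared rule requires, and the levels of the OE lines were close to each other. The change of OsLTP2.12 against own WT was nevertheless larger in PIP2-7 OE leaves, by 0.65 log2 units. With 1 library left out, OsLTP2.12 passed in 1 of 8 fits and the others in none, with the highest adjusted p without PIP2-7 WT replicate 2 for OsLTP2.12 and OsRNS2 (0.144 and 0.0897) and without PIP2-7 WT replicate 1 for OsTLP11 (0.185). Further rises below 5 CPM, chosen after their values were seen, were RD22, of a family of dehydration-responsive proteins, the lipase-like OsGELP46 and the purple acid phosphatase OsPAP15, with log2 differences between 1.82 and 2.17. With 1 library left out, RD22 passed in 1 of 8 fits, and the other 2 in none.

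Of the 10 falls with a symbol, 6 averaged at least 5 CPM, 4 of them besides OsNCED1 and OsOPR10. OsFbox203 (Os04g0380300, chromosome 4, positions 18602681 to 18609094, 4 exons), an F-box protein, had 48.5, 49.6, 50.3 and 51.3 CPM in OE libraries, against 90.3, 88.8, 98.5 and 101 CPM in WT libraries, and 54 to 76.9 CPM in KO libraries. The 4 OE libraries lay close together, below all KO and WT libraries, with a log2 difference of -0.92 (SE 0.0793, adjusted p = 0.00215) that was kept in all 8 fits with 1 library left out. It was lost with the group as a random effect in limma voom (adjusted p = 0.0684) and with replicates summed (adjusted p = 1 by edgeR). Pib-H8 (Os08g0539700), a homologue of the blast resistance gene Pib, had 23.8, 25.4, 33.9 and 33.2 CPM in OE libraries, against 55.5, 52.7, 74.3 and 72.4 CPM in WT libraries (log2 difference -1.13, SE 0.171, adjusted p = 0.0401). SULTR3 (Os04g0652400), of the sulfate transporter family, had 74.4, 73, 70.7 and 73.7 CPM in OE libraries, against 116, 113, 105 and 102 CPM in WT libraries (log2 difference -0.58, SE 0.0791, adjusted p = 0.0245). OsGSTU46 (Os07g0468100), a glutathione transferase, had 35.7, 36.2, 31.4 and 30.8 CPM in OE libraries, against 49.8, 47.8, 55.8 and 53.3 CPM in WT libraries (log2 difference -0.63, SE 0.0937, adjusted p = 0.0391). The last 3 genes passed in none of the fits with 1 library left out. Adjusted p there reached 0.151 for Pib-H8 and 0.158 for OsGSTU46 without PIP2-7 WT replicate 2. It reached 0.114 for SULTR3 without PIP2-7 OE replicate 1. OsGSTU46 had 18.6 and 19 CPM in PIP2-1 KO libraries, below its OE range, and 45.8 and 45.4 CPM in PIP2-7 KO libraries. KO libraries, at 41.4 to 52.6 CPM for Pib-H8 and 74.8 to 84.2 CPM for SULTR3, lay between the OE and WT ranges.

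Of the falls below 5 CPM, chosen after their values were seen, OsFTL10 (Os05g0518000), a relative of the florigen FT, had 0.0537 to 0.201 CPM in OE libraries, against 1.02 to 2.51 CPM in WT libraries and 0.812 to 3.92 CPM in KO libraries (log2 difference of OE from WT -3.72, adjusted p = 0.018). PRX125 (Os10g0109300), a class III peroxidase, had 0.741 to 1.03 CPM in OE libraries against 2.16 to 2.47 CPM in WT libraries. With 1 library left out, OsFTL10 passed in 2 of 8 fits and PRX125 in 1. Os08g0389700, without a symbol, had the lowest adjusted p of the falls, with 98.5, 101, 94.5 and 94.5 CPM in OE libraries, 141 to 148 CPM in KO libraries, and 278, 276, 243 and 239 CPM in WT libraries (log2 difference -1.41, adjusted p = 0.000606).

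**Figure D3:**
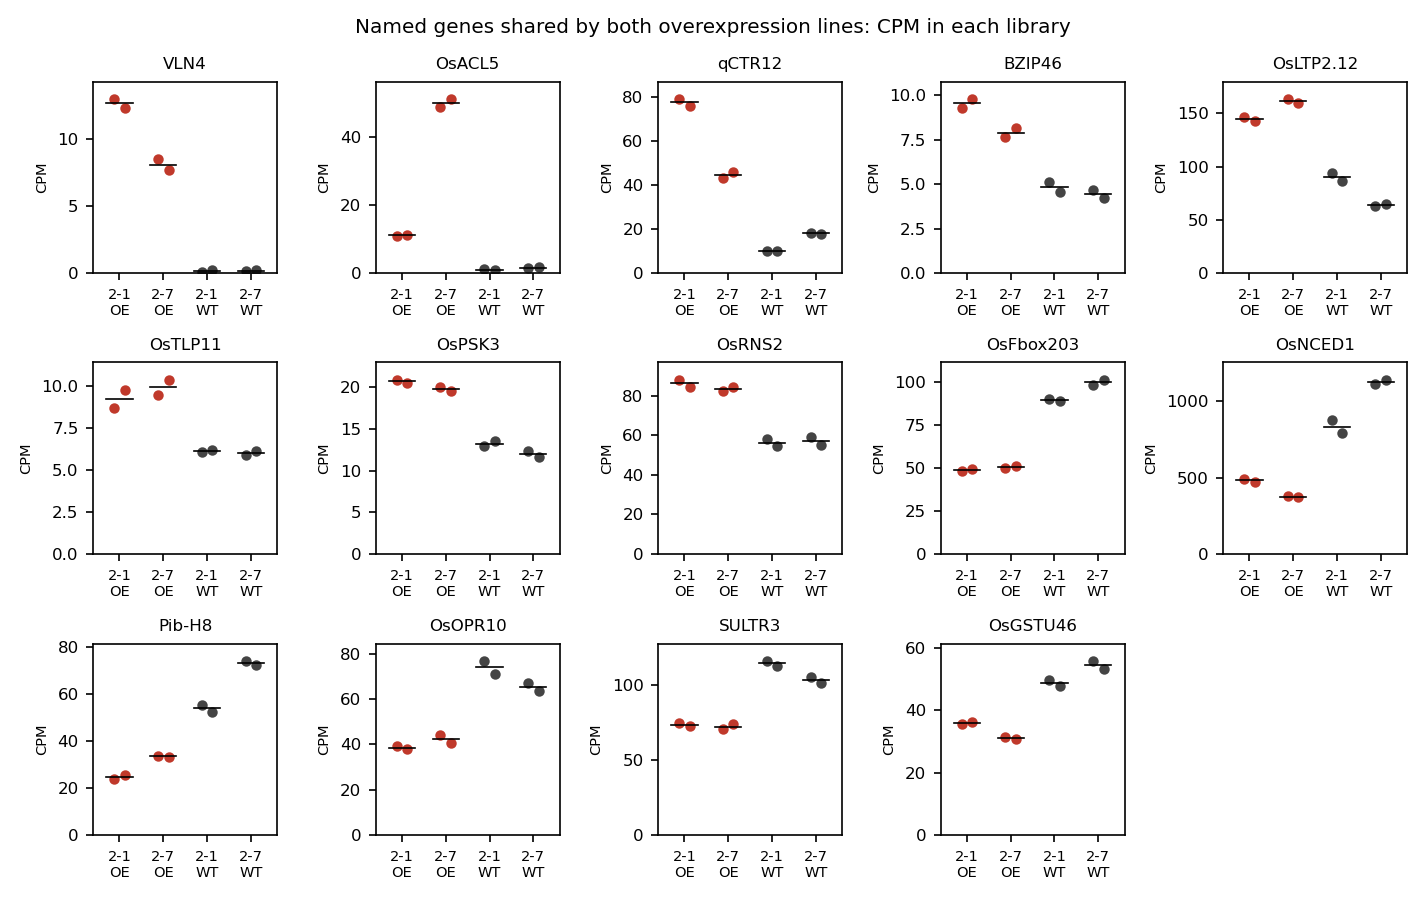
CPM in each library for the 14 shared genes with a symbol and a mean of at least 5 CPM, 1 panel a gene, with OE lines (red, left) and WT pairs (dark grey, right). Points are the 2 libraries of a group and bars their mean. In every panel the 4 OE points lie wholly above or wholly below the 4 WT points, which the shared rule requires.

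The shared genes lay on all 12 chromosomes. Another shared gene lay within 100 kb of 13 of the 91 (14.3%), while 1148 of the 22672 genes tested (5.06%) lay that close to a shared gene. Of the 8 such pairs, 7 moved in 1 direction and 1 did not: OsNCED1 fell and Os02g0704900 rose. The pairs include those among Os12g0537000, Os12g0538000 and Os12g0538066, which may count the same reads. Os06g0190900 and Os10g0460800, each in another such pair, both had an exon length of 615 bases. How far multi-mapping reads raise the number of pairs was not tested.

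Gene lists drawn up by symbol added few further shared changes. Of 23 lists, 20 had no member past the 4 against 4 test. The exceptions were phosphate starvation (1 higher of 55 tested, OsPAP15), class III peroxidases and Rboh oxidases (1 lower of 47, PRX125) and ABA signalling and dehydration proteins (1 higher and 1 lower of 93, BZIP46 and OsNCED1), beside 0.287% higher and 0.115% lower over all genes.

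Some members passed in each line against each WT pair but missed the 4 against 4 test, among them a group of metallothioneins, small cysteine-rich proteins that bind metals. Of 13 metallothioneins tested, 4 passed all 4 line comparisons lower in OE leaves and 0 higher (all genes: 2.03% lower and 1.83% higher), and the list's median log2 difference was -0.22 (all genes: 0.02). They were the type 1 genes OsMT1c, OsMT1f, OsMT1g and MTI4C, which are neighbours on chromosome 12 and so alike that reads may be counted at several of them. MTI4C (Os12g0571100) had 7.2, 7.78, 1.75 and 1.42 CPM in OE libraries, against 57.9, 56.6, 22.5 and 21.9 CPM in WT libraries. The libraries did not overlap, but both the OE lines and the WT pairs were far apart, and the 4 against 4 test by edgeR gave adjusted p = 0.14. OsMT1c (Os12g0568200) had 7.31, 6.79, 0.747 and 1.13 CPM in OE libraries, against 47.6, 49.5, 15.1 and 13.5 CPM in WT libraries (adjusted p = 0.268). OsMT1b (Os03g0288000) went its own way, with 26.3, 27, 365 and 350 CPM in OE libraries against 42.7, 42.1, 4.07 and 3.71 CPM in WT libraries.

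Of 55 phosphate starvation genes tested, 5 passed all 4 line comparisons higher, OsPAP15 among them, and 1 lower (all genes: 1.83% higher and 2.03% lower). PIP2-1 OE leaves, against their own WT pair, had 32 of the 55 higher and 7 lower (all genes: 24.7% and 23.1%). PIP2-7 OE leaves, against theirs, had 16 higher and 29 lower (all genes: 34.9% and 32.9%). The lines thus passed in opposite directions at 30 of the 55 (all genes: 30.7%). OsSPX2 (Os02g0202200), of the SPX proteins that sense phosphate status, had 30.6, 29.3, 33.7 and 28.8 CPM in OE libraries, against 12.2, 11.1, 20.2 and 21 CPM in WT libraries (adjusted p = 0.185 over 4 against 4). OsSPX6 (Os07g0614700) had 192, 186, 73.7 and 68.8 CPM in OE libraries, against 51.2, 44.8, 43.4 and 42.9 CPM in WT libraries (adjusted p = 0.184). The others past all 4 comparisons were OsSPX-MFS2, a vacuolar phosphate transporter, and LTN1, a ubiquitin-conjugating enzyme of phosphate homeostasis, both higher, and OsPT21, lower. Of 31 nitrogen genes tested, 0 passed all 4 comparisons higher and 2 lower, the nitrate reductase genes OsNR1 and OsNIA2, neighbours on chromosome 8. OsNR1 (Os08g0468100) had 37.9, 40, 57.4 and 56.4 CPM in OE libraries, against 87, 80.5, 109 and 111 CPM in WT libraries, with adjusted p = 0.0814 over 4 against 4.

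Set against its own WT pair, each line differed at many genes, and more genes moved in opposite directions than in the same direction. PIP2-1 OE leaves differed from PIP2-1 WT leaves at 10832 genes (47.8%) and PIP2-7 OE leaves from PIP2-7 WT leaves at 15369 genes (67.8%). These comparisons share no library. Both lines moved in the same direction at 1735 genes (16% of the calls of PIP2-1 OE and 11.3% of those of PIP2-7 OE), 888 higher and 847 lower, and in opposite directions at 6964 genes (64.3% and 45.3%). Of all genes tested, 7.65% thus moved in the same direction (3.92% higher and 3.74% lower) and 30.7% in opposite directions, 16% higher in PIP2-1 OE and lower in PIP2-7 OE leaves and 14.7% the other way. The difference of the line effects itself passed at 15170 genes (66.9%). With the WT pairs exchanged between the lines, which also leaves no shared library, 3214 genes (14.2%) moved in the same direction and 4999 (22%) in opposite directions.

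**Figure D4:**
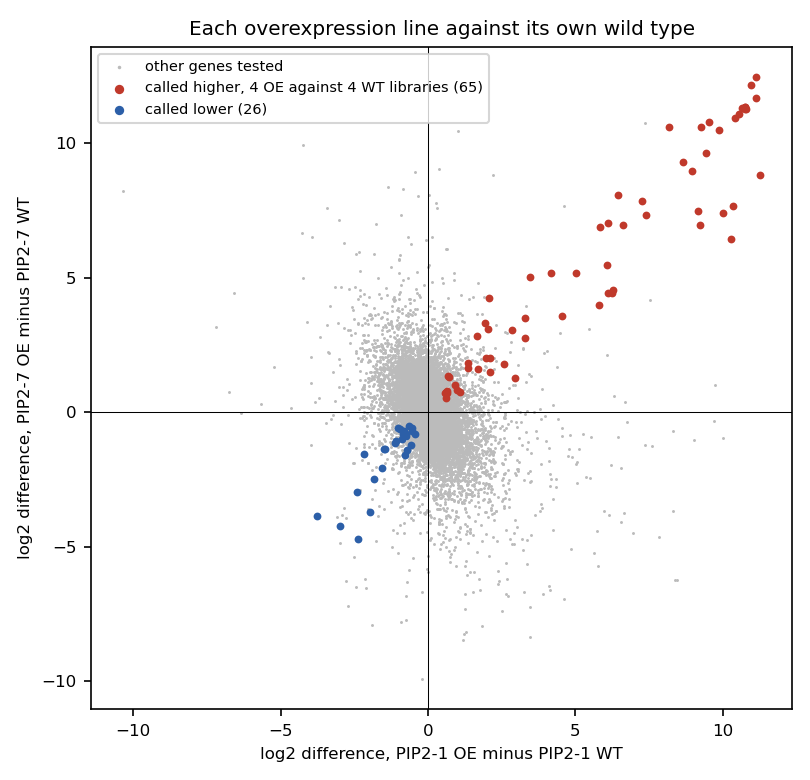
Log2 difference of PIP2-1 OE from PIP2-1 WT (horizontal axis) against that of PIP2-7 OE from PIP2-7 WT (vertical axis); each point is 1 of 22672 genes tested. Red points (65) were called higher and blue points (26) lower over 4 OE against 4 WT libraries; the quadrants off the rising diagonal hold the 6964 genes (30.7%) that passed in opposite directions in the lines, against 1735 (7.65%) that passed in the same direction.

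Of 31 nitrogen transport and assimilation genes tested, 17 passed in opposite directions in the lines (all genes: 30.7%). The 8 genes chosen as most opposed included NIGT1 and OsASNase2 of that list, and 2 genes outside it, TOND1 and OsALN, are described beside them. TOND1 (Os12g0630100), whose name stands for tolerance of nitrogen deficiency, had 46 and 45.1 CPM in PIP2-1 OE libraries against 2.21 and 1.15 CPM in PIP2-1 WT libraries, and 0.23 and 0.188 CPM in PIP2-7 OE libraries against 6.64 and 7.8 CPM in PIP2-7 WT libraries. NIGT1 (Os02g0325600), a nitrate-inducible repressor, had 25.7 and 23.8 CPM in PIP2-1 OE libraries against 0.533 and 0.407 CPM in PIP2-1 WT libraries, and 0.316 and 0.349 CPM in PIP2-7 OE libraries against 7.26 and 7.02 CPM in PIP2-7 WT libraries. In these genes the lines lay on opposite sides of all WT libraries. OsASNase2 (Os04g0650700), an asparaginase that releases ammonium from asparagine, had 129 and 128 CPM in PIP2-1 OE libraries against 1412 and 1348 CPM in PIP2-1 WT libraries, and 1194 and 1136 CPM in PIP2-7 OE libraries against 124 and 122 CPM in PIP2-7 WT libraries. Here PIP2-1 OE was close to PIP2-7 WT and PIP2-7 OE close to PIP2-1 WT, so that 4 OE and 4 WT libraries spanned the same range. OsALN (Os04g0680400), an allantoinase of ureide breakdown, had the same arrangement, with 42.4 and 43.1 CPM in PIP2-1 OE libraries against 207 and 219 CPM in PIP2-1 WT libraries, and 278 and 276 CPM in PIP2-7 OE libraries against 51.9 and 52.5 CPM in PIP2-7 WT libraries.

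Photosynthesis and chlorophyll breakdown genes were opposed as groups. Of 23 photosystem, antenna and Rubisco genes, 17 were higher and 0 lower in PIP2-1 OE leaves against their WT, and 2 were higher and 18 lower in PIP2-7 OE leaves against theirs. Over all genes tested the shares were 24.7% higher and 23.1% lower in PIP2-1 OE leaves, and 34.9% higher and 32.9% lower in PIP2-7 OE leaves. Their summed levels were 33880 and 33790 CPM in PIP2-1 OE libraries against 24260 and 24440 CPM in PIP2-1 WT libraries, and 23020 and 23480 CPM in PIP2-7 OE libraries against 47810 and 48600 CPM in PIP2-7 WT libraries. The WT pairs thus differed from each other by more than either line from its nearer WT pair. Of 9 chlorophyll breakdown genes, 2 were higher and 6 lower in PIP2-1 OE leaves, and 8 were higher and 1 lower in PIP2-7 OE leaves. SGR (Os09g0532000), the stay-green gene that starts chlorophyll breakdown, had 20.7 CPM in both PIP2-1 OE libraries against 102 and 103 CPM in PIP2-1 WT libraries, and 162 and 159 CPM in PIP2-7 OE libraries against 4.1 and 4.4 CPM in PIP2-7 WT libraries. Of 37 defence proteins, 22 were higher and 5 lower in PIP2-1 OE leaves and 5 higher and 24 lower in PIP2-7 OE leaves. No gene of these 3 lists passed the 4 against 4 test by edgeR.

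**Figure D5:**
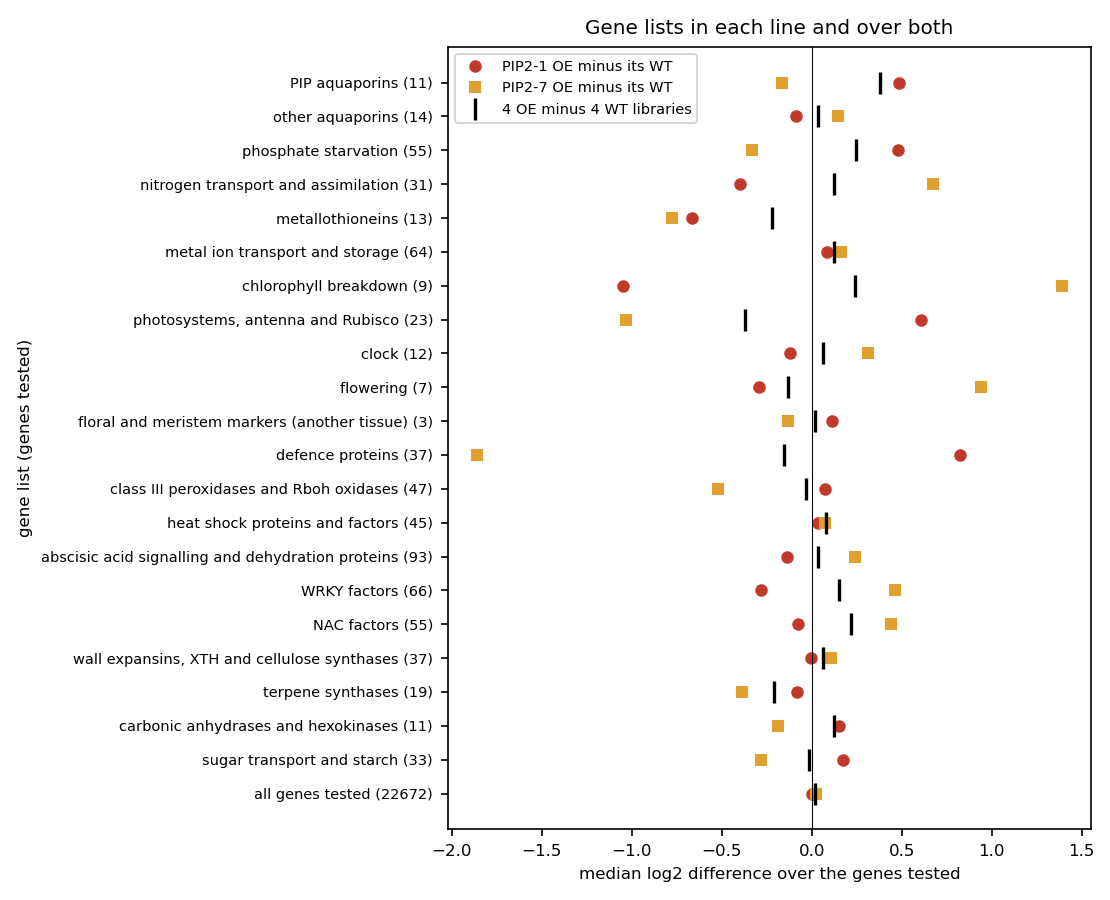
Median log2 difference over the tested genes of each list (rows, with the number tested), for PIP2-1 OE minus its WT (circles), PIP2-7 OE minus its WT (squares) and 4 OE minus 4 WT libraries (bars); the 2 lists with 1 tested gene are left out. Photosystem genes had medians of 0.60 and -1.03 in PIP2-1 OE and PIP2-7 OE, and chlorophyll breakdown genes -1.05 and 1.39.

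In the authors' deposited tables, which set each line against its own WT pair, 42 of the 91 shared genes were marked significant in both lines in the direction found here, 12 in the PIP2-1 table only, 5 in the PIP2-7 table only, and 32 in neither. Of these 32 genes, 25 had the status NOTEST in both of the authors' deposited tables and 2 had it in one of them, so that 5 were tested by the authors in both lines. At 2 of the 25, Os05g0438201 and Os02g0779650, the PIP2-1 table gave log2 fold changes of the opposite sign, -1.03 and -0.31 in the authors' deposited table. Outside the 32, the sign was also opposite at Os05g0542200, a fall here that the authors did test. Their PIP2-1 table gave it a log2 fold change of 0.25 with q = 0.384 by Cuffdiff. A log2 fold change of 0 stood in both of the authors' deposited tables at Os05g0256350, Os12g0537000, Os12g0538066, Os01g0722550 and Os11g0500100. These are among the 9 loci of 2800 to 3000 bases. The value was also 0 in both at Os04g0471100 and Os10g0126100, and in 1 of them at further loci. None of the 91 (0 genes) was marked in the authors' deposited tables as significant in the opposite direction.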

How the data were processed

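Leaf RNA-seq was deposited as 1 table of counts per gene over 12 libraries, made by the authors with featureCounts version 1.4.0, annotation release 52 and strand setting 2, per the file headers, with reads that map to several places counted at each. Trim Galore, HISAT2, Cufflinks, Cuffdiff 2.2.1 and the build IRGSP-1.0 are named in the submitters' processing notes. The authors' deposited Cuffdiff tables give a log2 fold change, p-value and q-value per gene. Deposited gene names stop at a semicolon, so PIP isoforms were named by locus, with RefSeq families.

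Counts of the 8 OE and WT libraries were filtered (filterByExpr), scaled (TMM) and tested with edgeR 4.0.16 (R 4.3.3; robust quasi-likelihood fit; 1 term, OE or WT; Benjamini-Hochberg, threshold 0.05). SEs are the absolute log2 difference over the root of F, and approximate. A fit of 4 group means gave the line contrasts. CPM is TMM-scaled, and gaps use log2(CPM + 0.5). Alternatives used limma 3.58.1 and DESeq2 1.42.0. The tests were checked on simulated data. Replicates differed beyond sampling noise (chi-square per degree of freedom 2.5 to 7.24 in the 4 groups). Log2 differences are fitted values, and for genes at 0 in WT they depend on the prior count.

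Members and gene lists were chosen with earlier results of these data known, and list patterns were adjusted once the deposited names were seen. Named genes are the tested PIP genes; shared genes with a symbol and at least 5 CPM (8 rises, 6 falls; up to 10 each way by the smallest of the 4 line differences); shared members of lists with 2 or more (none added); and the 4 genes each way most opposed between lines. OsLTP2.12, Pib-H8 and OsGSTU46 stood just inside the gap rule, and no called gene stood outside it. One shared rise with a symbol is not reported here.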

Additional observations from a re-analysis of the deposited data

Results flagged for a closer look

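The test of the difference between the lines passed for 6 of the 14 named shared genes and 8 of the 11 PIP genes (edgeR, interaction of the 4 groups; 66.9% of all genes tested). The 8 genes chosen as most opposed also passed, as that choice fixes. Values are the log2 change of PIP2-7 OE minus that of PIP2-1 OE, each against its own WT. Among shared genes, whose common direction is set by the rule that chose them, the values were 1.58 for OsACL5, -1.67 for qCTR12, 0.65 for OsLTP2.12, -0.80 for OsNCED1, 0.32 for OsOPR10 and -0.37 for OsGSTU46. Among PIP genes the values were -4.10 for OsPIP2-1, 1.52 for OsPIP2-7, -1.59 for PIP1-1, -0.70 for PIP1-2, -2.76 for PIP2-2, -4.33 for Os04g0521100, -3.68 for Os07g0448400 and 3.12 for Os07g0448200. The genes chosen as most opposed, for which the value is a description, had -14.62 for OsRCI2-9, -9.94 for TOND1, -10.15 for NIGT1, -7.46 for OsHyPRP04, 6.66 for OsASNase2, 7.84 for XBOS36, 4.72 for OsALN and 6.64 for Os1900.

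At Os07g0448400, 1 of the 4 WT libraries stood apart from the other 3, PIP2-1 WT replicate 1 with 5.14 CPM against 4.56 to 4.58 CPM (gap of that library over the range of the 4, 0.959 on the log2 scale, past Dixon's 95% limit). It was 1 of 66 groups of 4 examined, and chance marks about 1 group in 20.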

How the results depend on the processing

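None of the 14 named shared genes (0 genes) changed sign under an alternative run. Their choice all but fixes this, as the rule requires OE and WT libraries that do not overlap. The balance of rises over falls did change. Counts of genes higher and lower over 4 OE against 4 WT libraries (65 and 26) were 331 and 356 with DESeq2, where falls outnumbered rises, 290 and 217 with the experiment as a block, 14 and 2 with the group as a random effect in limma voom, and 1 and 0 with replicates summed (282 genes at an unadjusted p below 0.05). They were 65 and 26 with RLE scaling, 63 and 25 with no filter, 66 and 26 over nuclear genes, and 53 and 29 with KO libraries in the fit, which kept 58 of the 91. Leaving out 1 library gave 39 to 46 higher and 7 to 12 lower genes, and 39 to 46 and 7 to 11 shared changes. A gap of at least 1 log2 unit left 48 and 8 shared changes. Exchanging the WT pairs, chosen after seeing the data, gave 3214 genes in the same direction in place of 1735. Replicate numbers did not pair the samples (correlation of deviations -0.0377 to 0.064 between groups); with the replicate number as a block 38 genes were higher and 8 lower, for both the 4 against 4 test and the shared changes. Over all 33 named genes, 423 values kept their side of the threshold, 135 lost a call and 3 gained one. Only the 14 shared genes had a call to lose, so all 135 losses are theirs. The 423 include PIP genes and opposed genes that stayed uncalled, and so do not measure how stable the calls are. The cause of these differences was not tested. Depth does not separate a near-absent gene from an absent one below 0.0226 CPM over the 4 WT libraries.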
